A study of Mus musculus with 2 samples.

Results

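Genes of sterol and lipid synthesis were followed in B cells of the mouse colon. The set was a list of 30 gene symbols, and each symbol was found once among the 31053 genes of the deposited matrices. B cells sorted from lamina propria of the colon, the tissue beneath the gut epithelium, had been profiled by single-cell RNA sequencing with the 10x Chromium 3′ kit (version 2). The day 14 library came from female C57BL/6J mice given 2% dextran sulfate sodium (DSS), which injures the colonic epithelium, in drinking water for 7 days and then left to recover for 7 days. The day 0 library came from female C57BL/6J mice without treatment. The treatment tag names DSS for both libraries, so that day 0 is called untreated on the basis of the growth protocol and the series design. There is 1 library per day, and the sources used here do not give the number of mice in it.

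Animal cells make cholesterol and isoprenoids from acetyl-CoA through the mevalonate pathway and the sterol branch that follows squalene. The transcription factors SREBP-1 and SREBP-2, encoded by Srebf1 and Srebf2, switch on these enzymes and those of fatty acid synthesis when sterols in the endoplasmic reticulum are low. INSIG proteins hold the SREBP precursors in that membrane when sterols are plentiful, and dividing or activated lymphocytes are known to draw on this synthesis for new membrane.

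SREBPs bind sterol regulatory elements and act with NF-Y, which binds CCAAT boxes. Promoter windows of 300 bases, from 250 before to 50 after the start site, were held by RefSeq (GRCm38.p6) for 24 of the 30 genes. The motif TCACNCCAC, searched on both strands, was present for 1 of these 24 genes (4.17%), against 1.44% of all 27025 genes with a window. CCAAT, also searched on both strands, was present for 20 of 24 (83.3%), against 41.1% of all genes. The motifs do not overlap each other in the windows below. A match of letters is a description and shows no binding. Hmgcs1 is shown because it alone held the first motif, at bases 114 to 122 of its window, together with 4 CCAAT matches. Insig1, Msmo1 and Idi1 were added after their values were seen, as genes with many counts and CCAAT that stand out in the comparisons among cells. Capitals mark TCACCCCAC and CCAAT, which reads ATTGG where it lies on the other strand. The windows are chr13:119690101-119690400 (plus strand) for Hmgcs1, chr5:28071162-28071461 (plus strand) for Insig1, chr8:64733529-64733828 (minus strand) for Msmo1 and chr13:8885356-8885655 (plus strand) for Idi1, each written 5′ to 3′ along the gene.
Hmgcs1: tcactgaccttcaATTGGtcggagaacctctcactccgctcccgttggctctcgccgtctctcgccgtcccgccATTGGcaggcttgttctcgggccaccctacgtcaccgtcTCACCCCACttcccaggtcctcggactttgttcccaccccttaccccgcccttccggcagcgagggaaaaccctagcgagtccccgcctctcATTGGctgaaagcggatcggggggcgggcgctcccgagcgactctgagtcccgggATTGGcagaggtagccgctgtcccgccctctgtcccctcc
Insig1: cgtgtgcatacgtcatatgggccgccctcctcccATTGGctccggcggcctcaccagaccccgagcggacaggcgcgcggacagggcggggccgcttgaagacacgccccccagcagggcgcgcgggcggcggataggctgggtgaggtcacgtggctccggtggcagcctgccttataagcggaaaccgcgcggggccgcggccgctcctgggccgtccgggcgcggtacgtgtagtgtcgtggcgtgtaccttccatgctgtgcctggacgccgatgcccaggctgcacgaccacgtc
Msmo1: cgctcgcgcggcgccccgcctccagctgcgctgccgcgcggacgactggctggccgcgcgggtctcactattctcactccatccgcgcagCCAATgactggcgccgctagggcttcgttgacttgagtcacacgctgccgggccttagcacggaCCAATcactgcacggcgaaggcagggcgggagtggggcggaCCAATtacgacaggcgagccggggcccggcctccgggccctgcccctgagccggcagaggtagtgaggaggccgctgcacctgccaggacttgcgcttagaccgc
Idi1: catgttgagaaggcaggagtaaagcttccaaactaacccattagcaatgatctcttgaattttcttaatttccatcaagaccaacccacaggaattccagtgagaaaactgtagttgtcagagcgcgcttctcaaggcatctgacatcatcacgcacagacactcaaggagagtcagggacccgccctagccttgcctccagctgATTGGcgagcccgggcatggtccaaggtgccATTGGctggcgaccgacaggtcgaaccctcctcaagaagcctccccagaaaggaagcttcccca

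Transcripts were counted as unique molecular identifiers (UMIs), 12317052 in 4692 cells at day 14 and 8690102 in 3290 cells at day 0. The median cell had 2241.5 UMIs at day 14 and 2278.5 at day 0. Levels are counts per 1000000 UMIs (CPM), where UMIs of immunoglobulin genes and of genes encoded by the mitochondrial genome are left out. Such 3′ counts do not scale with gene length. At least 1 mature B cell marker was counted in 99.9% of cells at day 14 and 100% at day 0. T cell markers summed to 23.2 CPM at day 14 and 36.0 CPM at day 0, with Cd3e at 0 on day 14. The most abundant T cell marker alone gave 19.6 CPM at day 14 and 29.9 CPM at day 0. Myeloid markers summed to 41.8 CPM, in 38 cells, at day 14 and 5.19 CPM, in 22 cells, at day 0, with Csf1r at 0 on day 14 and C1qa, S100a8 and S100a9 at 0 on day 0. Epithelial markers summed to 11.5 CPM at day 14 and 13.3 CPM at day 0, and Krt20 was at 0 on both days. Stromal and endothelial markers summed to 50.4 CPM at day 14 and 60.1 CPM at day 0, with Col1a1 and Col3a1 at 0 on day 0. Nearly all of this sum came from 1 marker, with 49.1 CPM at day 14 and 59.6 CPM at day 0. Plasma cell markers summed to 2811 CPM at day 14 and 4818 CPM at day 0, and germinal center markers to 50.5 CPM at day 14 and 117.9 CPM at day 0. The part of these cells in the results below was not tested, apart from the values by cluster. Between the libraries, 17 cells shared a barcode sequence.

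Sterol and lipid synthesis genes were counted at similar levels on both days, a little lower at day 14. Together they made up 10184 UMIs or 878.2 CPM at day 14, against 8141 UMIs or 1006 CPM at day 0. The summed level was therefore 0.873 times that of day 0, with a 95% interval of 0.848 to 0.899. All intervals of levels and ratios cover counting error only. With 1 library per day there was no test, and a difference between days cannot be told apart from one between libraries. Fewer cells of a kind and less RNA per cell cannot be told apart in such sums.

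Of the 30 genes, 27 had at least 50 UMIs over both days. A ratio of 1.5-fold either way was used as a description of size. By it 0 genes were higher at day 14, against 1.31% of the 8924 genes measured, and 1 gene was lower, against 4.94%. The other 26 lay within 1.5-fold. The interval lay below 1 for 9 of 27 genes (33.3%) and above 1 for 0, against 19.2% and 5.93% of all measured genes. Intervals are narrower for genes with more UMIs, and these shares were not matched for UMI number. The median log2 ratio was -0.12 over the 27 genes and -0.09 over all measured genes. Of all measured genes, 117 were higher and 441 lower. Scaling by the TMM method moved the all-gene median up by 0.10 (log2), and 4 genes (Srebf2, Cyp51, Msmo1 and Sc5d) then kept an interval below 1, against 9.58% of all genes. It gave 186 higher and 266 lower genes over all genes and 0 of either kind among the 27.

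Among the regulators, Srebf2, the main activator of the cholesterol genes, had 1110 UMIs or 95.7 CPM at day 14, against 972 UMIs or 120.1 CPM at day 0. Its ratio was 0.797 (95% interval 0.730 to 0.869), and a UMI of it was found in 20.3% of day 14 cells and 24.5% of day 0 cells. Srebf1, which drives more of the fatty acid genes, was far scarcer. It had 87 UMIs or 7.50 CPM at day 14 and 66 UMIs or 8.16 CPM at day 0, and its ratio of 0.920 had an interval (0.660 to 1.29) that includes 1. Insig1, an SREBP target that retains the SREBP precursors, was the most abundant gene of the set on both days. Its 1512 UMIs gave 130.4 CPM at day 14, against 1175 UMIs or 145.2 CPM at day 0 (ratio 0.898, interval 0.831 to 0.970). Insig2, which has the same role but is not known as a target of SREBPs, reached 28.2 CPM at day 14 and 34.2 CPM at day 0 (ratio 0.824, interval 0.700 to 0.970). The 4 regulators summed to 261.8 CPM at day 14 and 307.7 CPM at day 0, and all 4 ratios were below 1 by less than 1.5-fold. The ratio of the sum was 0.851 (interval 0.807 to 0.897) and 0.914 (0.867 to 0.964) with TMM scaling.

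The 7 enzymes of the mevalonate pathway were close on both days. Their sum was 268.4 CPM at day 14 and 281.3 CPM at day 0, and the interval of the ratio (0.954, 0.904 to 1.01) includes 1. With TMM scaling the ratio was 1.03, on the other side of 1. Idi1, the isopentenyl diphosphate isomerase, led with 70.4 CPM at day 14 and 76.6 CPM at day 0. Fdps, which makes farnesyl diphosphate, had 65.1 CPM at day 14 and 66.6 CPM at day 0, and Hmgcs1, which makes HMG-CoA, had 59.0 CPM at day 14 and 62.3 CPM at day 0. The intervals of all 3 ratios include 1. Pmvk, the phosphomevalonate kinase, was at 35.5 CPM on day 14 and 35.1 CPM on day 0. Mvk, the mevalonate kinase, had the highest ratio of the 27 genes at 1.31, from 88 UMIs at day 14 and 47 at day 0, with an interval of 0.907 to 1.90. Mvd, the decarboxylase of the pathway, had 136 UMIs at day 14 and 118 at day 0 and a ratio of 0.804. Acat2, a cytosolic thiolase that joins acetyl-CoA units, had 221 UMIs at day 14 and 164 at day 0. Its count is uncertain because mice carry the near-identical gene Acat3, which had 0 UMIs on both days, and the sources used here do not say how reads shared by both genes were counted.

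The squalene and sterol branch was lower at day 14 as a sum, at 269.0 CPM against 326.1 CPM at day 0 (ratio 0.825, interval 0.783 to 0.869). With TMM scaling the ratio was 0.886 (interval 0.841 to 0.934). Cyp51, the lanosterol demethylase, had 734 UMIs or 63.3 CPM at day 14, against 705 UMIs or 87.1 CPM at day 0, a ratio of 0.726 with an interval of 0.654 to 0.807. Msmo1, a methylsterol oxidase, was at 74.4 CPM on day 14 and 92.7 CPM on day 0 (ratio 0.803), and Sc5d, a sterol desaturase, at 37.0 CPM on day 14 and 49.1 CPM on day 0 (ratio 0.754). Fdft1, the squalene synthase, had the lowest ratio of the branch at 0.720, from 97 UMIs at day 14 and 94 at day 0. These 4 genes had intervals below 1, although none passed 1.5-fold.

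The other measured genes of the branch had ratios whose intervals include 1. Sqle, the squalene epoxidase, was at 21.4 CPM on day 14 and 22.6 CPM on day 0. Lss, the lanosterol synthase, was scarce, with 48 UMIs at day 14 and 34 at day 0. Ebp, an isomerase of the late steps, was at 28.6 CPM on day 14 and 26.8 CPM on day 0, and its ratio of 1.07 and that of Nsdhl (1.22) were above 1. Nsdhl, a sterol dehydrogenase, had 82 UMIs at day 14 and 47 at day 0. Hsd17b7, a ketosteroid reductase, had 129 UMIs at day 14 and 93 at day 0, and Dhcr7, which performs the last step of one route to cholesterol, 136 UMIs at day 14 and 105 at day 0. Tm7sf2, a sterol reductase, had 21 UMIs at day 14 and 14 at day 0, under the minimum of 50. In the mouse annotation (GENCODE M21) exons of Cyp51 overlap Akap9 and exons of Fdft1 overlap Ctsb on the opposite strand, and exons of Tm7sf2 overlap Vps51 on the same strand. Outside the branch, exons of Fdps overlap Gm43738, those of Srebf1 Mir6922 and those of Scd2 Mir5114 on the same strand. Exons of Hmgcs1, Idi1, Lss and Srebf1 also overlap other genes on the opposite strand. The sources used here do not say how reads of such overlaps were counted.

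Stard4, which carries cholesterol between membranes, had 174 UMIs at day 14 and 133 at day 0, and its ratio was 0.913. In the fatty acid branch the sum was 53.8 CPM at day 14 and 62.0 CPM at day 0 (ratio 0.867, interval 0.770 to 0.977), and with TMM scaling the interval (0.827 to 1.05) includes 1. Acly, which supplies cytosolic acetyl-CoA from citrate, was its most abundant gene, with 29.9 CPM at day 14 and 31.4 CPM at day 0. Acaca, the acetyl-CoA carboxylase, was the 1 gene of the set past 1.5-fold. It had 50 UMIs or 4.31 CPM at day 14, against 53 UMIs or 6.55 CPM at day 0, and the interval of its ratio of 0.658 ran from 0.438 to 0.988. Under TMM scaling its ratio was 0.707, within 1.5-fold. Scd2, a stearoyl-CoA desaturase, had 122 UMIs at day 14 and 118 at day 0 (ratio 0.721, interval 0.556 to 0.937). Fasn, the fatty acid synthase, was at 8.02 CPM on day 14 and 8.65 CPM on day 0. The desaturases of polyunsaturated fatty acids were at the edge of detection, Fads1 with 3 UMIs at day 14 and 4 at day 0 and Fads2 with 9 UMIs at day 14 and 3 at day 0. Aacs, which activates the ketone body acetoacetate for lipid synthesis, had 119 UMIs at day 14 and 101 at day 0. The plot of levels shows each of these genes on both days.

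**Figure D1:**
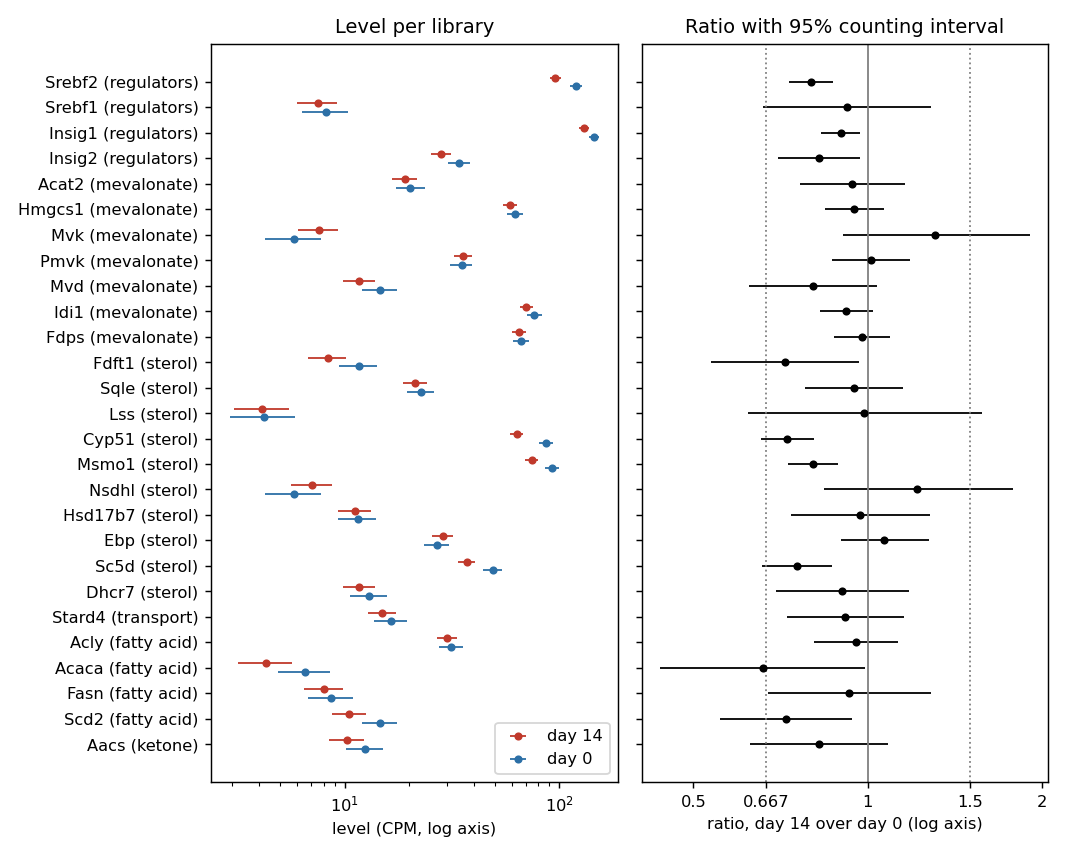
Level of the 27 measured genes in CPM on a log axis (left, day 14 above day 0) and the ratio of day 14 over day 0 on a log axis (right); bars are 95% counting intervals and dotted lines mark 1.5-fold. Of the 27 ratios 23 (85.2%) lie below 1, against 67.0% of all measured genes, and with TMM scaling 16 (59.3%), against 47.6%. Acaca at 0.658 is the 1 gene past the dotted lines.

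Beside the 30 genes, 28 further genes of sterol and lipid handling were read. Of these, 24 had at least 50 UMIs, and 22 lay within 1.5-fold between the days. Acss2, which makes acetyl-CoA from acetate, was the 1 higher gene, with 93 UMIs at day 14 and 40 at day 0 (ratio 1.62, interval 1.11 to 2.41). The median log2 ratio of the 24 genes was -0.01.

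Across single cells the set was unevenly spread. The share of a cell's UMIs that came from the 30 genes had a median of 0.0631% at day 14 and 0.0776% at day 0. The highest share in a cell was 1.05% at day 14 and 0.798% at day 0. No UMI of the set was counted in 24.9% of cells at day 14 and 18.9% at day 0, while the largest number in a cell was 45 at day 14 and 36 at day 0. The level did not climb steadily with depth. In 4 equal groups of cells from few to many UMIs it was 848, 919, 915 and 848 CPM at day 14 and 973, 1038, 1090 and 950.5 CPM at day 0.

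Each cell was then thinned at random to 1000 UMIs, which leaves out 77 shallower cells at day 14 and 36 at day 0. The mean was 0.881 UMIs of the set per cell at day 14 and 0.998 at day 0, over 4615 and 3254 cells. The variance over the mean, which is about 1 when UMIs fall into cells independently, was 1.51 at day 14 and 1.46 at day 0. The variances of the 30 genes taken singly summed to only 1.08 times the mean at day 14 and 1.10 times at day 0, and the remainder is shared variation among the genes. For the mevalonate and sterol enzymes alone the variance over the mean was 1.47 at day 14 and 1.43 at day 0. The fatty acid enzymes had 1.02 at day 14 and 0.991 at day 0, and the 4 regulators 1.11 at day 14 and 1.15 at day 0. The excess of this measure over 1 shrinks with the mean UMIs per cell. That mean was 0.529 at day 14 and 0.595 at day 0 for the mevalonate and sterol enzymes. It was 0.0531 at day 14 and 0.0605 at day 0 for the fatty acid enzymes. For the regulators it was 0.274 at day 14 and 0.312 at day 0. With a mean so low, values near 1 cannot show whether the fatty acid enzymes vary less. No comparison at equal means was made. Cells with at least 4 UMIs of the set made up 3.55% (exact binomial interval 3.04% to 4.13%) at day 14 and 4.46% (3.77% to 5.22%) at day 0. These intervals overlap.

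**Figure D2:**
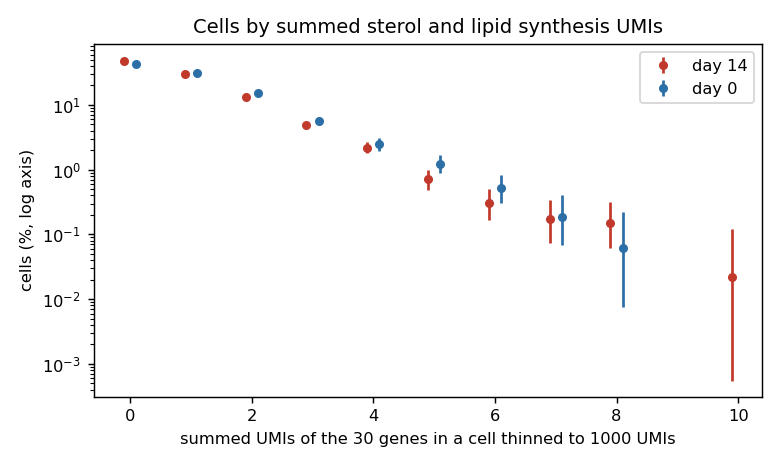
Percent of cells (log axis) by the number of UMIs of the 30 genes in a cell thinned to 1000 UMIs, day 14 left of day 0, with 95% exact binomial intervals. Cells without such a UMI made up 48.0% at day 14 and 43.3% at day 0, and the largest numbers were 10 at day 14 and 8 at day 0.

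The genes of the set were found together in the same cells. For each gene with at least 20 positive cells on both days, the level of all other genes of the set was compared between thinned cells with a UMI of it and cells without. It was at least 1.5-fold higher on both days for 8 of 23 genes, against 0.153% of the 7172 genes compared, the 8 included. The median ratio of the 23 genes was 1.42 at day 14 and 1.29 at day 0, and that of all genes outside the pathway lists was close to 1 on both days. Of these 7128 other genes, Gsto1 alone passed, with 1.55 at day 14 and 1.82 at day 0. It was named after its values were seen, and it did not pass when cells of high UMI number were left out or at 2000 UMIs.

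The 8 genes spanned the pathway from HMG-CoA to late sterols. Cells with Hmgcs1 held the rest of the set at 1598 CPM, against 778.2 CPM in cells without it, at day 14, a ratio of 2.05 (interval 1.84 to 2.28). At day 0 the levels were 1682 CPM in cells with Hmgcs1 and 893.8 CPM in cells without, a ratio of 1.88 (1.66 to 2.12). Cells with Fdps held it at 1525 CPM, against 777.5 CPM in cells without, at day 14, and at 1544 CPM, against 908.9 CPM, at day 0. Cells with Sqle held it at 1656 CPM, against 843.3 CPM in cells without, at day 14, and at 1609 CPM, against 964.3 CPM, at day 0. The day 0 ratio was 1.70 for Fdps and 1.67 for Sqle. The ratios were 1.80 at day 14 and 1.60 at day 0 for Msmo1, and 1.80 at day 14 and 1.51 at day 0 for Idi1. Fdft1 gave 1.76 at day 14 and 1.69 at day 0, Sc5d 1.55 at day 14 and 1.59 at day 0, and Insig1 1.57 at day 14 and 1.52 at day 0. All intervals of these 8 genes lay above 1 on both days. Cells with Hmgcs1 were of ordinary depth, with a median of 2243 UMIs at day 14 and 2278.5 at day 0.

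Other genes of the set passed on 1 day or on neither. Cyp51 gave 1.64 at day 14 and 1.37 at day 0, Hsd17b7 1.95 at day 14 and 1.47 at day 0, and Fasn 2.00 at day 14 and 1.14 at day 0. With a second random thinning the count was 6, with Fasn among them in place of Insig1, Fdft1 and Sc5d. At 2000 UMIs it was 8, with Mvd and Cyp51 in place of Insig1 and Sc5d, and without cells of high UMI number the same 8 genes passed. Hmgcs1, Idi1, Fdps, Sqle and Msmo1 thus passed under all 4 settings. Differences between the days in these ratios were not tested. Srebf2 gave 1.27 at day 14 and 1.17 at day 0, with both intervals above 1. Srebf1 (1.04 at day 14 and 1.01 at day 0), Pmvk (1.09 at day 14 and 0.995 at day 0), Ebp (0.962 at day 14 and 0.970 at day 0) and Acly (1.11 at day 14 and 1.06 at day 0) lay near 1 with intervals that include it. Insig2 was the 1 gene below 1 with an interval clear of it on a day, at 0.934 at day 14 and 0.771 (0.605 to 0.970) at day 0.

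Cells with Insig1 held the mevalonate and sterol enzymes at 860.4 CPM, against 485.7 CPM in cells without it, at day 14 (ratio 1.77), and at 921.6 CPM against 546.4 CPM at day 0 (ratio 1.69). The fatty acid enzymes rested on far fewer UMIs. Cells with Insig1 held them at 75.5 CPM from 40 UMIs, against 50.2 CPM in cells without it, at day 14, with an interval of the ratio of 1.04 to 2.12. At day 0 cells with Insig1 held them at 61.8 CPM from 26 UMIs, against 60.4 CPM in cells without it (ratio 1.02, interval 0.650 to 1.55). Whether these ratios differ from those of the mevalonate and sterol enzymes was not tested. The level of the fatty acid enzymes in cells with a UMI of a mevalonate or sterol enzyme was 63.0 CPM, against 47.6 CPM in cells without, at day 14 (ratio 1.32, interval 1.02 to 1.72), and 73.2 CPM against 52.3 CPM at day 0 (ratio 1.40, interval 1.05 to 1.87).

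**Figure D3:**
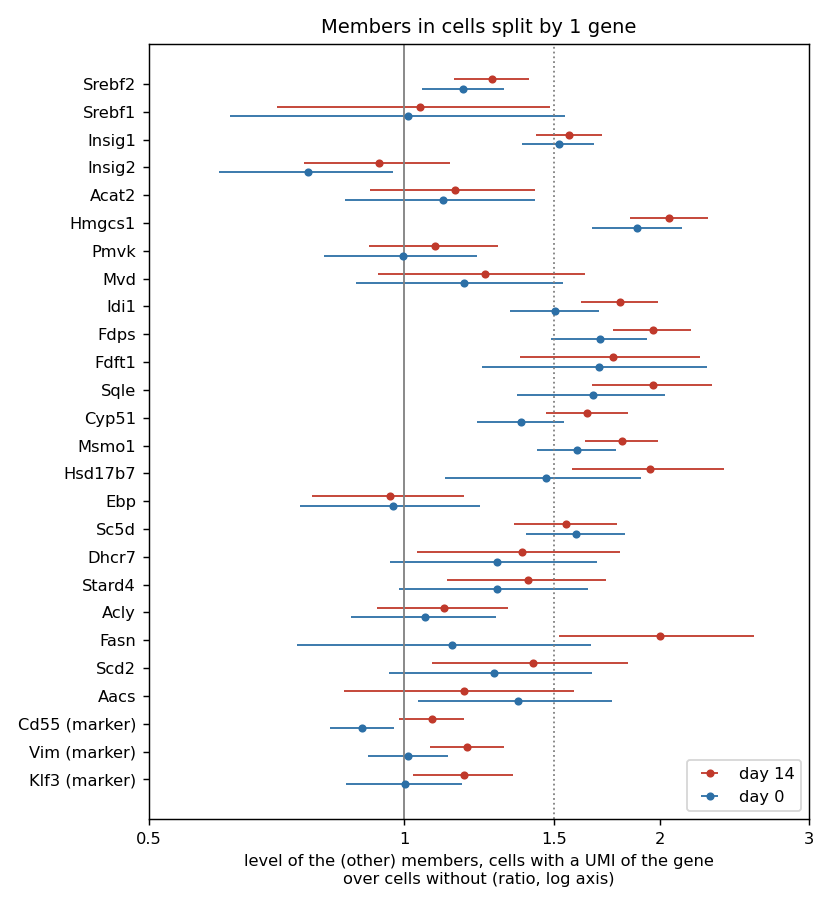
Level of the other genes of the set in cells with a UMI of the named gene over cells without, as a ratio on a log axis with 95% counting intervals, day 14 above day 0; the dotted line marks 1.5. Hmgcs1 (2.05 at day 14 and 1.88 at day 0) lies far right, while Cd55, Vim and Klf3 lie between 0.893 and 1.19.

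Cd55 (decay accelerating factor, which limits complement), Vim (the intermediate filament vimentin) and Klf3 (a transcription factor of the Krüppel-like family) were set against the genes cell by cell. Cd55 itself was at 138.0 CPM on day 14 and 232.2 CPM on day 0, Vim at 123.8 CPM on day 14 and 166.1 CPM on day 0, and Klf3 at 45.5 CPM on day 14 and 57.0 CPM on day 0. The set showed only small differences between cells with and without each marker. In cells with Cd55 it was at 939.9 CPM, against 872.2 CPM in cells without, at day 14 (ratio 1.08, interval 0.985 to 1.18). At day 0 it was at 912.1 CPM in cells with Cd55 and 1022 CPM in cells without (ratio 0.893, interval 0.818 to 0.973). The ratios thus lay on opposite sides of 1, and the difference between them was not tested.

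For Vim the ratio was 1.19 (interval 1.07 to 1.31) at day 14, over 430 cells with it and 4185 without, and 1.01 (0.908 to 1.13) at day 0, over 385 cells with it and 2869 without. For Klf3 it was 1.18 (1.02 to 1.34) at day 14, over 224 cells with it and 4391 without. At day 0 the interval of the ratio was 0.854 to 1.17, over 169 cells with Klf3 and 3085 without. The intervals of all such splits of cells, those of Cd55 included, take UMIs as independent. They are too narrow, because the variance over the mean of the set was 1.51 at day 14 and 1.46 at day 0. Thinned to 2000 UMIs, which keeps 2750 day 14 cells, the day 14 ratio was 1.01 for Vim and 0.943 for Klf3. In unthinned day 14 cells it was 1.04 for Vim and 1.12 for Klf3. Read the other way, cells with at least 4 UMIs of the set held Vim at 213 CPM, against 106 CPM in cells with none, at day 14, and at 166 CPM, against 152 CPM in cells with none, at day 0. Cd55 was at 189 CPM in the rich cells and 143 CPM in cells with none at day 14, while at day 0 it had 29 UMIs in the 145 rich cells and 380 UMIs in the 1410 cells with none, a lower level in the rich cells. The intervals of the rich cells and the cells with none overlapped for Cd55 on both days and for Vim at day 0. Pearson's r over cells between the summed UMIs of the set and those of a marker lay between -0.0274 and 0.0416 over the 3 markers and both days. Such values in sparse counts are no finding.

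Single genes of the set were compared in the same way where they had at least 50 thinned UMIs in a library, which held for 17 genes at day 14 and 15 at day 0. At day 14, 1 gene in cells with Cd55 was at least 1.5-fold higher and 2 were lower, against 4.61% and 7.68% of all genes. In cells with Vim, 2 were higher and 1 lower, against 7.77% and 9.40%. In cells with Klf3, 5 were higher and 1 lower, against 10.9% and 16.5%. Of these, Fdps with Vim (95.3 CPM in cells with it and 58.3 CPM in cells without, ratio 1.64, interval 1.14 to 2.28) and Cyp51 with Klf3 (111.6 CPM in cells with it and 59.9 CPM in cells without, ratio 1.86, interval 1.18 to 2.81) had intervals above 1, as did Sqle with Klf3, from 11 UMIs. At day 0, 0 genes were higher with Cd55 and 1 lower, against 3.68% and 4.99%. With Vim, 1 was higher and 0 lower, against 7.45% and 8.38%, and with Klf3, 1 was higher and 6 lower, against 12.0% and 17.5%. The shares for Klf3 were above those of all genes, higher at day 14 and lower at day 0, and this was not tested. None of those day 0 genes past 1.5-fold had an interval clear of 1. Within 1.5-fold, Insig1 with Cd55 had an interval below 1 at day 0 (ratio 0.765, interval 0.598 to 0.967). At day 14 its ratio was 1.25, with an interval of 0.998 to 1.55.

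**Figure D4:**
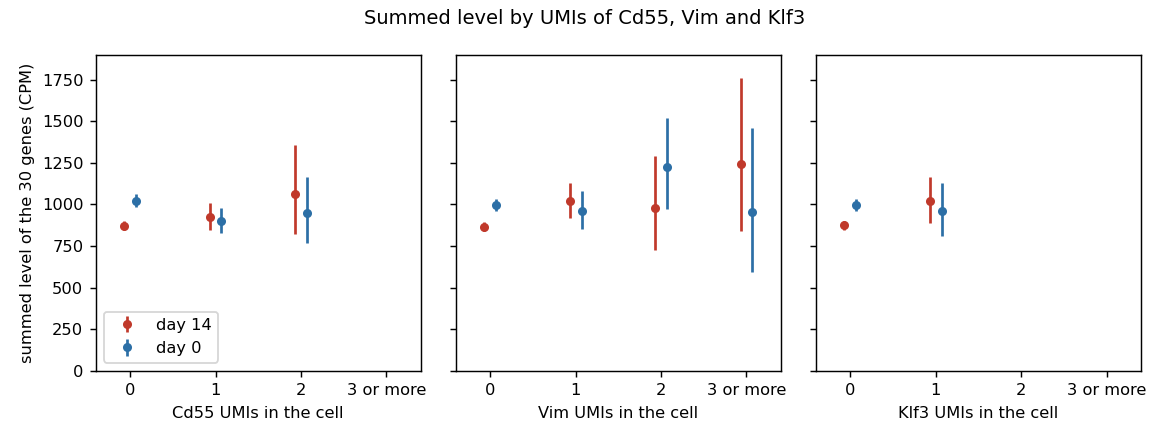
Summed level of the 30 genes in CPM in thinned cells with 0, 1, 2 or at least 3 UMIs of Cd55, Vim or Klf3, day 14 left of day 0, with 95% counting intervals; bins under 20 cells are left out. No marker shows a steady climb on both days, and with 1 Cd55 UMI the level was 925 CPM at day 14 and 899 CPM at day 0.

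The level also differed among clusters of cells. Clusters were built from both libraries without the 30 genes, the other pathway genes and the 3 markers, and 11 were found. The lowest levels at day 14 were in a cluster led by Slfn2, Cd79b and Il16, with 669 CPM at day 14 and 848 CPM at day 0, and in an interferon response-like cluster, with 682 CPM at day 14 and 642 CPM at day 0. The interferon response-like cluster held 444 cells at day 14 and 13 at day 0, so its level is that of 1 library. A cluster led by Cd80, S100a6 and Nt5e was also low, with 787 CPM at day 14 and 674 CPM at day 0. It had the highest Vim level among the clusters of over 100 cells on both days, at 315 CPM at day 14 and 310 CPM at day 0.

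The plasma-like cluster had 1141 CPM at day 14 and 1250.4 CPM at day 0, in 30 cells at day 14 and 25 at day 0, with Fdps at 237 CPM at day 14 and 273 CPM at day 0. A cluster led by Gm6377, Pmaip1 and Klf4 had 1090 CPM at day 14 and 1037 CPM at day 0, in 529 cells at day 14 and 668 at day 0. A cluster led by Pclaf and Rgs13, which also holds cell cycle genes, had 1010 CPM at day 14 and 1413 CPM at day 0, in 19 cells at day 14 and 35 at day 0. The immediate early activation-like cluster, led by Egr1, Myc and Egr3, had 1043 CPM at day 14 and 1258 CPM at day 0. Insig1 differed widely among clusters. It was at 230 CPM at day 14 and 228 CPM at day 0 in a cluster led by Notch2, Abhd2 and Kdm6b, against 86.6 CPM at day 14 and 96.9 CPM at day 0 in the Slfn2 cluster.

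Cells with at least 4 thinned UMIs of the set were found in most clusters. They made up 6.44% (exact binomial interval 4.50% to 8.88%) of the Gm6377, Pmaip1 and Klf4 cluster at day 14 and 5.11% at day 0. In the Slfn2 cluster they made up 1.86% (1.20% to 2.76%) at day 14 and 3.20% at day 0, and in the interferon response-like cluster 0.917% (0.251% to 2.33%) at day 14. Single enzymes had their own order among clusters. Hmgcs1 was at 36.3 CPM at day 14 and 56.0 CPM at day 0 in the Slfn2 cluster, and at 87.0 CPM at day 14 and 66.3 CPM at day 0 in the Gm6377 cluster. Cyp51 in the Cd80 cluster was at 113 CPM at day 14 and 95.1 CPM at day 0, although the set as a whole was low there. In that cluster Fdps was at 49.8 CPM at day 14 and 18.2 CPM at day 0, where it had 9 UMIs.

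The difference between days was not shared by all clusters. The ratio of day 14 over day 0 was 0.789 (interval 0.736 to 0.846) in the Slfn2 cluster and 0.846 (0.788 to 0.909) in one led by Emp3, Tmem108 and Prkca. It was 0.829 (0.745 to 0.923) in the immediate early activation-like cluster and 0.715 (0.588 to 0.867) in the Pclaf and Rgs13 cluster. It was 1.05 (0.980 to 1.13) in a cluster led by Gm6377, Pmaip1 and Klf4 and 1.17 (0.996 to 1.37) in the Cd80 cluster. With cluster shares made equal on both days, the ratio over all cells was 0.914.

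**Figure D5:**
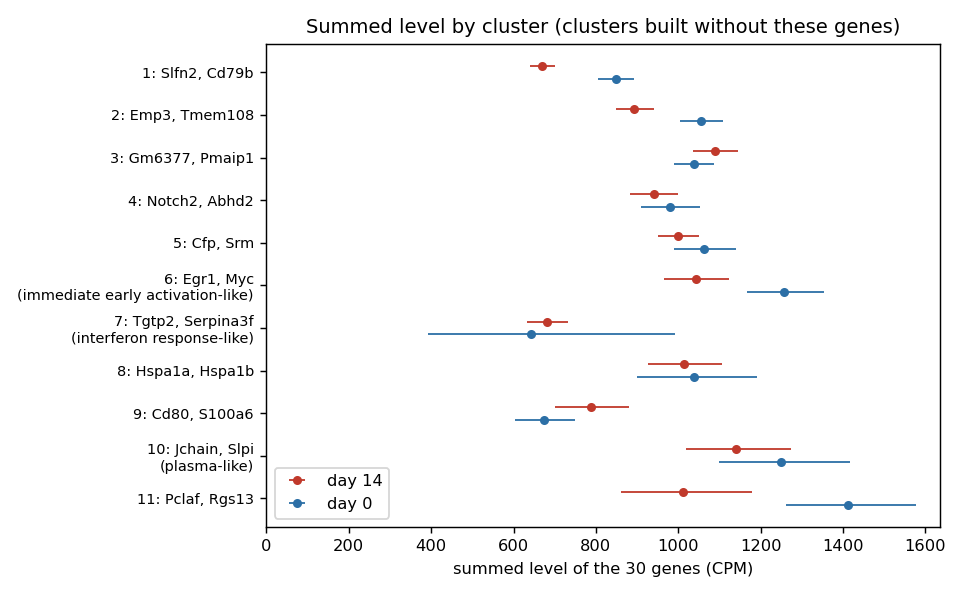
Summed level of the 30 genes in CPM in each of the 11 clusters, day 14 above day 0, with 95% counting intervals. The Slfn2 cluster (669 CPM at day 14 and 848 CPM at day 0) and the interferon response-like cluster (682 CPM at day 14 and 642 CPM at day 0) are among the lowest, and the Pclaf and Rgs13 cluster at day 0 is the highest at 1413 CPM.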

How the data were processed

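The deposited matrices hold UMI counts per gene and cell barcode, and per the file headers Cell Ranger 3.0.1 wrote them. The build is mm10 and Seurat 3.0 was used, per the submitters' processing notes. The sources used here give no settings for alignment, annotation or cell calling. The deposited log tables hold natural log values that matched ln(1 + 10000 × UMIs / total UMIs of the cell) within a relative tolerance of 0.001 in all 76934724 day 14 and 53946130 day 0 values compared. Of 4780 day 14 barcodes they lack 88, and of 3376 day 0 barcodes 86, by an unstated filter, and they served here to define the cells.

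Counts were summed per library and divided by the library's UMIs without immunoglobulin genes and genes of the mitochondrial genome (11596323 at day 14 and 8091798 at day 0). Sums have exact Poisson intervals, ratios exact conditional intervals and shares exact Clopper-Pearson intervals, all at 95% and for counting error only. UMI counts in cells that do not express a gene can come from free RNA, and the sort leaves no cell type that should lack these genes to measure it. Cells were thinned without replacement to 1000 UMIs for the spread over cells, the splits by a gene or marker, and the rich cells. Shares per cell, the groups by depth and the levels by cluster used unthinned counts. Clusters came from the 2000 most variable genes, without the genes compared and without immunoglobulin, mitochondrial and ribosomal protein genes, through 20 principal components, 20 neighbours and the Leiden method at resolution 0.8 (Scanpy 1.11.5, leidenalg 0.10.2). A cluster was named from marker lists where at least 2 of its 10 and 3 of its 25 leading genes were markers of 1 class, and otherwise stays unnamed. Doublets were not called or removed, and cells over 2 times the median UMIs were left out in an alternative. TMM factors came from edgeR 4.0.16 on the 2 library sums. The calculations ran in Python 3.11.15 with numpy 2.4.6, scipy 1.17.1 and pandas 2.3.3, and the ratios and splits were checked on simulated counts.

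All 30 genes are accounted for, and the 27 with at least 50 UMIs are described with their levels, UMIs or ratios. Of the 28 further pathway genes, those past 1.5-fold are named, and the values of some genes taken by the rule for named genes are not reported here. The genes most like the set are the 10 with the highest smaller lower bound of the 2 days' ratios between cells with at least 4 thinned UMIs of the set and cells with 0. The set, the lists and the comparisons were chosen with earlier results of these data known. GENCODE M21 holds 99.6% of the 31053 gene IDs.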

Additional observations from a re-analysis of the deposited data

How the results depend on the processing

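No paired analysis was possible because each day holds 1 library, and for the same reason no replicate could be left out. Each of the 27 genes was read once under each alternative of scaling or of cells, and 187 such ratios stayed within their counting interval and 2 did not. A change of scaling multiplies all ratios by the same factor, so its 27 ratios are not separate checks. Among the values for sums, counts, spreads and splits, 72 stayed and 29 moved. The summed ratio was 0.938 with TMM factors, 0.942 with median-of-ratios factors and 0.914 with equal cluster shares, and the median log2 ratio was -0.019 with TMM, -0.013 with median-of-ratios factors and -0.049 with equal shares. The number of genes 1.5-fold lower was 0 under these 3 settings and without cells of high UMI number, and 2 with all barcodes or with a minimum of 1 UMI, where 1 gene (Fads2) was higher. Median-of-ratios factors gave 201 higher and 255 lower genes over all genes. Scd2 was at 0.548 with all barcodes and Cyp51 at 0.808 with equal cluster shares. Thinned to 500 UMIs, 8.38% of day 14 cells and 10.8% of day 0 cells held at least 2 UMIs of the set, with variance over mean of 1.25 at day 14 and 1.23 at day 0. Thinned to 2000 UMIs, 1.78% of day 14 cells and 2.48% of day 0 cells held at least 8, with 2.15 at day 14 and 2.01 at day 0, and a second random thinning to 1000 gave 1.55 at day 0. Both measures change with the depth of thinning by their definition. Their values at 500 and 2000 UMIs are counted among the 29 but are no check of those at 1000. At day 14 the ratio for Vim was 1.04 in unthinned cells, 1.01 at 2000 UMIs and 1.06 for the fatty acid enzymes alone. For Klf3 it was 0.943 at 2000 UMIs and 1.46 for the fatty acid enzymes alone at day 14, and 0.773 for those enzymes at day 0. These fatty acid values rest on few UMIs in cells with Klf3. Acly had 11 and Scd2 6 at day 14, and at day 0 each had 3. They were set against the interval of all 30 genes, which is narrower than their own. For Insig1 and the mevalonate and sterol enzymes at day 14 it was 1.59 with a second thinning. The number of genes that split the cells 1.5-fold on both days was 6 with a second thinning and 8 at 2000 UMIs and without cells of high UMI number. These alternatives for the splits and the second thinning for the markers were chosen after seeing the data, and the cause of the other movements was not tested.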

Other observations

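Genes outside the set and the 28 further pathway genes were ranked, and these lists do not cover all of lipid synthesis. The rank was by how much higher a gene was in cells rich in the set than in cells with none. Rich cells held at least 4 UMIs of the set after thinning (164 cells at day 14 and 145 at day 0). Cells with none numbered 2214 at day 14 and 1410 at day 0. Among 4985 genes Pcyt2, an enzyme of phosphatidylethanolamine synthesis, stood first. It was at 85.4 CPM in rich cells and 16.7 CPM in cells with none at day 14 (ratio 5.11, interval 2.55 to 9.67), and at 96.6 CPM in rich cells and 29.1 CPM in cells with none at day 0 (ratio 3.32, interval 1.67 to 6.22). Tkt, the transketolase of the pentose phosphate pathway, had ratios of 2.07 at day 14 and 2.00 at day 0. Pikfyve, a phosphoinositide kinase, had 2.89 at day 14 and 2.65 at day 0, from 9 UMIs in rich cells on each day. Hist1h2bc had 4.01 at day 14 and 2.19 at day 0, and Hspa5, a chaperone of the endoplasmic reticulum, 1.57 at day 14 and 1.58 at day 0. Cd83, an activation marker of B cells, had 1.49 at day 14 and 1.29 at day 0. Actb, Jund, Ppia and Ptma, abundant genes, had ratios between 1.21 and 1.49. The ranking carries no test. Vim stood at rank 476, Klf3 at 530 and Cd55 at 1234, and rich cells had median depths of 2169 UMIs at day 14 and 2330 at day 0, against 2251 at day 14 and 2284 at day 0 in cells with none.

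Some genes of lipid handling outside the set were named after their values were seen, and 2 of them (Scd1 and Npc2) were more abundant on both days than any gene of the set. Scd1, a stearoyl-CoA desaturase like Scd2, was at 310.8 CPM on day 14 and 343.6 CPM on day 0, while Scd2 was at 10.5 CPM on day 14 and 14.6 CPM on day 0. Npc2, which carries cholesterol out of lysosomes, was at 148 CPM on both days. At day 0 its interval (139.7 to 156.6 CPM) overlapped that of Insig1 (137.0 to 153.8 CPM). Tecr, a reductase of fatty acid elongation, was at 96.2 CPM on day 14 and 116.4 CPM on day 0 (ratio 0.827, interval 0.757 to 0.903), and Nfyb, a subunit of the CCAAT-binding factor NF-Y, was at 33.7 CPM on day 14 and 45.0 CPM on day 0 (ratio 0.750, interval 0.648 to 0.867). Acacb had 0 UMIs on both days, and a floor of 3 counts per library is 0.259 CPM at day 14 and 0.371 CPM at day 0.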
